A study of Homo sapiens with 6 samples.

Results

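The genes described here build and sulfate the sugar chains of proteoglycans. They comprise the enzymes of the linker, of chondroitin, dermatan and heparan sulfate chains and of hyaluronan, together with genes that supply sugar and sulfate precursors. The list holds 39 genes named by symbol, and all 39 were found by Entrez ID among the 28395 rows of the count table. RNA levels were read by DRUG-seq, in which many samples are barcoded and sequenced as a pool, in TC28a2, an immortalised human chondrocyte line. A control vector was used for 3 samples and an FAP overexpression vector for the other 3, and RNA was taken 48 hours after transfection in both groups. FAP encodes a serine protease of the cell surface that is known from activated fibroblasts. All samples came from 1 cell line, and the labels name neither the promoter of the vector nor separate cultures. The p-values therefore rest on differences among libraries that may be only technical.

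As background, a chondroitin, dermatan or heparan sulfate chain starts on a serine of the core protein. There a short linker of xylose, galactose, galactose and glucuronic acid is made. The next sugar decides the type of chain: N-acetylgalactosamine begins chondroitin or dermatan sulfate, and N-acetylglucosamine begins heparan sulfate. Sulfotransferases then place sulfate from the donor PAPS along the chain, and epimerases turn part of the glucuronic acid into iduronic acid. In cartilage, chondroitin sulfate on aggrecan holds the water that lets the tissue bear load, and loss of several of these enzymes or of the sulfate transporter causes skeletal dysplasia. Hyaluronan differs in having no core protein and no sulfate.

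No gene of chain synthesis or sulfation passed the test for a difference between FAP and control vector. Of the 39 members, 35 had enough counts to be tested and 0 were called by edgeR's quasi-likelihood test at an adjusted p under 0.05. Over all 13373 genes tested, 0.224% were called. DESeq2 and limma-voom also called 0 members. At an unadjusted p under 0.05 there were 2 members, DSE and PAPSS2, both with larger values in FAP libraries, against 9.91% of all genes tested in either direction and 4.61% with larger values in FAP libraries. Log2 fold changes ran from -0.32 (HAS2) to 0.40 (CSGALNACT2), 17 being positive and 18 negative. Their median was -0.02, and the median over all genes tested was 0.00313. The median size without regard to sign was 0.15 among members and 0.15 among all genes tested.

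The precision of these values varied with the level of the gene. The 95% interval of the log2 fold change lay within a 2-fold change in either direction for 33 of the 35 members, the exceptions being XYLT1 (upper bound 1.03) and CHST7 (upper bound 1.08). It lay within a 1.5-fold change for 21. Over all genes tested the corresponding shares were 81.3% and 59.2%. Smaller differences were not resolved with these 3 libraries per group, so the absence of calls does not show that the groups were alike.

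**Figure D1:**
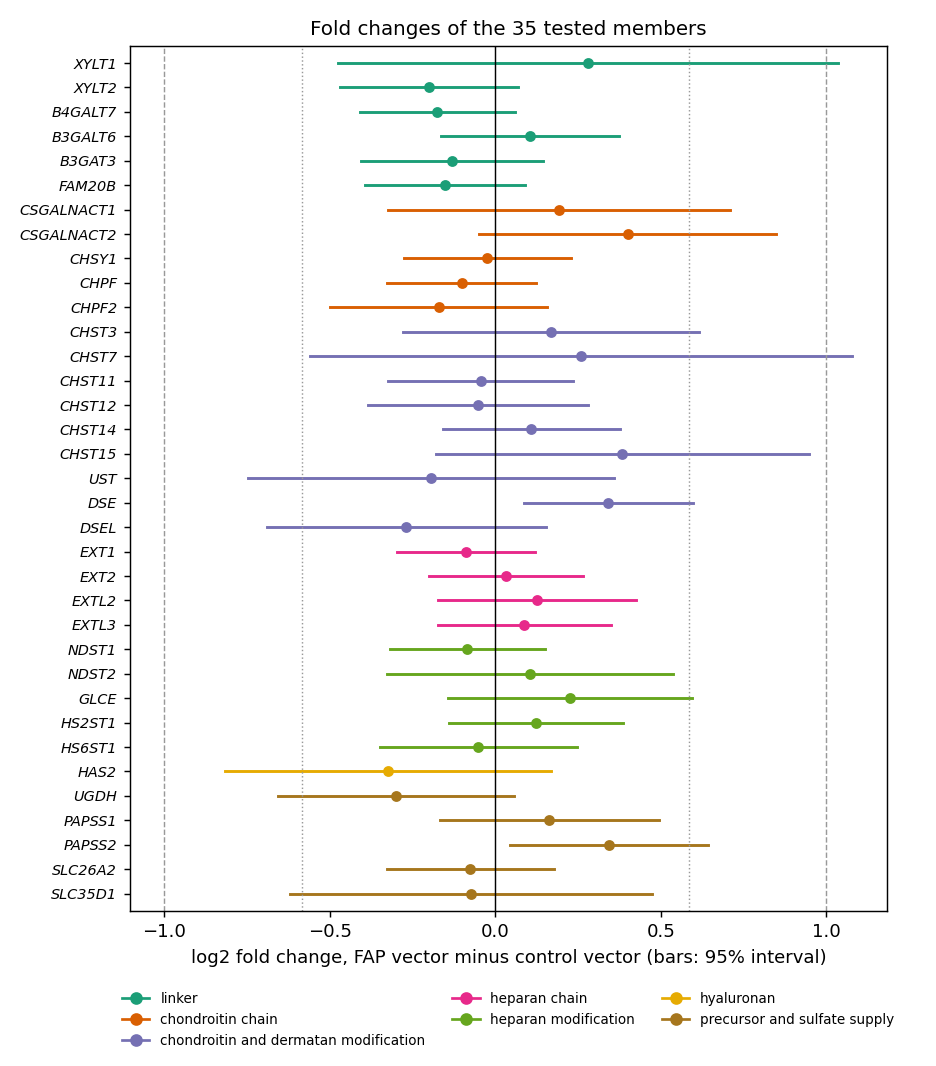
Log2 fold change (FAP vector minus control vector) of each tested member with its 95% interval, coloured by role. Dashed lines mark a 2-fold and dotted lines a 1.5-fold change, the points lie between -0.32 and 0.40, and the intervals of DSE and PAPSS2 do not reach 0 before adjustment.

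The libraries held 5736056 to 13839743 gene counts, of which 5425 to 14346 belonged to members. FAP had 0, 11 and 5 counts in control replicates 1, 2 and 3 and 1396, 3182 and 4733 in the FAP libraries, which matches all 6 labels. FAP replicate 3 stood apart from the other FAP libraries (a chi-square of 17.5 and 16.7 for each degree of freedom when compared with them, while those compared with each other gave 6.06). Among tested members the lowest library was FAP replicate 3 for 9, control replicate 2 for 8 and control replicate 1 for 7, and the highest was FAP replicate 1 for 11. Without FAP replicate 3, 0 of 36 tested members were called and the smallest adjusted p was 0.215 (PAPSS2). In that fit 248 of all 13305 genes tested were called, a share too small for the 0 to set the members apart. Of 16 chondrocyte markers 1 was tested, SOX9 (28.8 CPM under control vector, 37.4 CPM under FAP vector), while COL2A1 was at 0.381 and 0.0941 CPM and aggrecan (ACAN) at 1.20 and 0.537 CPM. All 9 fibroblast and mesenchymal markers were tested, with summed levels of 2183 to 2703 CPM in controls and 2406 to 2669 CPM in FAP libraries. Most of this sum was VIM (1655 CPM under control vector, 1694 CPM under FAP vector) and COL1A1 (591 and 660 CPM). PDGFRA (3.21 and 3.10 CPM), DCN (0.799 and 1.28 CPM) and LUM (1.04 and 1.31 CPM) were low. The summed levels of 5 epithelial and 4 endothelial markers, with CDH5 at 0 counts throughout, were at most 4.47 CPM and 2.55 CPM in any library. They were larger in every FAP library than in every control (at least 2.82 against at most 2.73 CPM and at least 1.84 against at most 0.983 CPM), and their part in the results was not tested. The largest part of each difference was 1 gene, CLDN4 (1.77 and 2.77 CPM, adjusted p = 0.658) and PECAM1 (0.444 and 1.70 CPM, adjusted p = 0.293). Neither was called, and the other markers of both lists had too few counts to be tested. The 4 blood markers, nearly all CD68, summed to 15.1 to 17.5 CPM in controls and 14.2 to 16.9 CPM in FAP libraries.

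Levels are CPM, that is, counts scaled to library size with TMM factors, as mean ± SD with n = 3 per group. Levels of different genes are compared only after division by transcript length, as CPM per kilobase, which presumes reads along the whole transcript. DRUG-seq is generally described as priming at the poly(A) tail, and read positions were not analysed here. Where the order of genes turns without this division, the undivided CPM are given beside it. In bulk RNA, fewer expressing cells and less RNA per cell cannot be told apart.

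**Figure D2:**
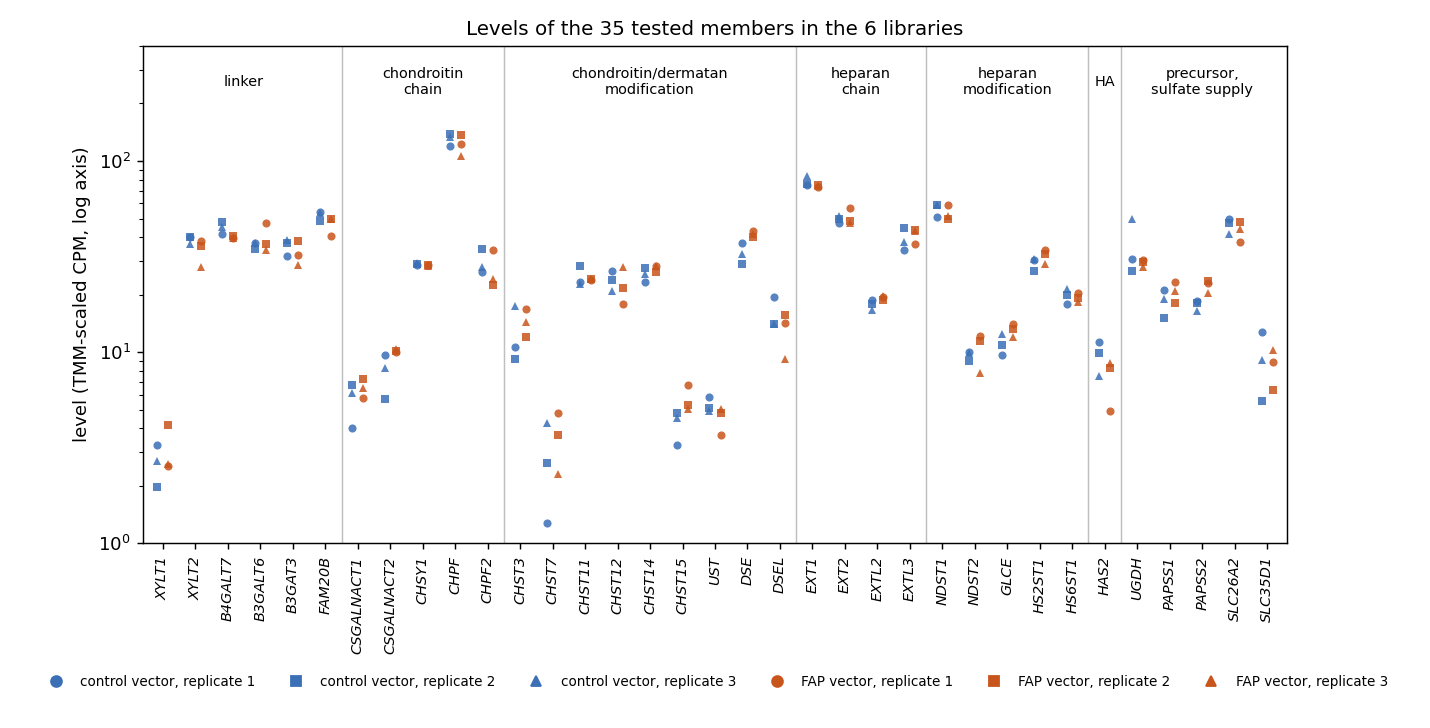
Level of each tested member (TMM-scaled CPM, log axis) in the 6 libraries, grouped by role, HA standing for hyaluronan. CHPF lies between 106 and 138 CPM, XYLT1 and CHST7 lie under 5 CPM, and FAP and control points overlap for 28 of the 35.

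Because the title of the series names the transcription factor ZEB1, which binds the E-box CACCTG, the 250 bases before annotated starts were searched for these letters on both strands (CAGGTG being the other strand). RefSeq windows (GRCh38.p14) were found for 34 of the 39 members and none for CSGALNACT1, EXT1, EXTL3, HAS2 and PAPSS2. The motif was present in 5 of 43 member windows (11.6%) and in 17.5% of all 35116 windows, the same EXT2 site being counted from more than 1 start. The members that held the motif were DSE, EXT2, FAM20B and NDST1, 4 of 34. This is a count of genes and cannot be set against the 17.5%, which is a share of windows. The windows of the epimerase DSE (chr6:116369669-116369708, plus strand), the heparan polymerase subunit EXT2 (chr11:44096095-44096134, plus strand) and the N-sulfotransferase NDST1 (chr5:150497644-150497683, plus strand) are shown with the motif in capitals, since these enzymes act at the start of dermatan and heparan modification or build the chain. All 3 lie in introns of longer transcripts of the same gene in GENCODE v29. The DSE window belongs to 1 of its 4 RefSeq starts, and gene counts do not tell which start was in use.
DSE: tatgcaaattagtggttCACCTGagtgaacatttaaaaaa
EXT2: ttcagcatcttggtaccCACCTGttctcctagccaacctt
NDST1: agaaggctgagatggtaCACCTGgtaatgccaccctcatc
A match describes these letters only. Of the 3 genes shown, DSE had an unadjusted p under 0.05, and EXT2 and NDST1 had log2 fold changes of 0.03 and -0.08. FAM20B, whose window is not shown, had a log2 fold change of -0.15.

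The linker enzymes were all measured, and 0 of 6 were called (log2 fold changes -0.20 to 0.28, 2 positive). Per length, the order in controls was B4GALT7, which adds the first galactose (25.6 ± 1.95 CPM per kilobase), B3GAT3, which closes the linker with glucuronic acid (17.5 ± 1.72), B3GALT6, which adds the second galactose (13.1 ± 0.539), XYLT2 (11.1 ± 0.533), FAM20B, the kinase that phosphorylates the xylose (8.73 ± 0.493), and XYLT1 (0.268 ± 0.0669). The ranges of neighbours in this order did not overlap. Without length division FAM20B (52.2 CPM) stood above B4GALT7 (44.8 CPM), so the order rests on that step. XYLT2 held nearly all of the transcript of the xylosyltransferases, which add the xylose of the linker, with or without length division. Its share was 97.6 ± 0.57% of the summed per-length level in controls and 96.9 ± 0.823% in FAP libraries. From undivided CPM its share was 93.6 ± 1.48% and 91.6 ± 2.08%.

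B4GALT7 (Entrez 11285; GRCh38.p14 chromosome 5, 177600132 to 177610330) was at 41.3, 48.1 and 45.0 CPM in control replicates 1 to 3 and at 39.6, 40.3 and 39.4 CPM in the FAP libraries. The FAP values lay just below the lowest control. Its log2 fold change was -0.17 (SE 0.11, adjusted p = 0.635). XYLT2, at 40.2, 39.9 and 36.8 CPM in controls and 38.3, 35.9 and 28.0 CPM in FAP libraries, had the most negative estimate of the group (-0.20, SE 0.13), FAP replicate 3 giving the smallest value. FAM20B was at 52.2 ± 2.95 and 46.7 ± 5.45 CPM, B3GAT3 at 36.0 ± 3.54 and 33.0 ± 4.89 CPM, and B3GALT6 at 36.4 ± 1.499 and 39.5 ± 6.85 CPM. The groups overlapped for all 3.

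Chondroitin chain enzymes showed 0 of 5 tested members called, and CHSY1 had both the smallest spread within groups and the log2 fold change nearest to 0 of the 35 tested members. CHSY1, the chondroitin synthase, was at 28.7, 28.95 and 29.4 CPM in controls and at 28.6, 28.7 and 28.3 CPM with the FAP vector (log2 fold change -0.02, 95% interval -0.28 to 0.23). Its relative CHSY3 had 10, 7 and 7 counts in controls and 13, 7 and 5 in FAP libraries and did not pass the low-count filter. CHPF, the polymerizing factor that works with the synthase, had the highest per-length level of all members (43.3 ± 3.01 CPM per kilobase in controls). CHPF (Entrez 79586; chromosome 2, 219538954 to 219543809) was at 121, 138 and 133 CPM in controls and 123, 137 and 106 CPM in FAP libraries, the groups overlapping and FAP replicate 3 being the lowest (log2 fold change -0.10, SE 0.11, adjusted p = 0.797). CHPF2 was at 29.6 ± 4.49 and 26.9 ± 6.33 CPM. CHPF took 85.4 ± 1.21% of the summed per-length level of CHPF and CHPF2 in controls and 85.6 ± 3.2% in FAP libraries. From undivided CPM its shares were 81.6 ± 1.45% and 81.9 ± 3.87%. Exons of CHPF2 overlap SMARCD3 on the opposite strand (16.7 and 18.2 CPM). As the strand setting is not given, reads of that overlap cannot be assigned, which also bears on the share.

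The transferases that commit the linker to chondroitin had lower levels. CSGALNACT2 (Entrez 55454; chromosome 10, 43138445 to 43185308) was at 9.68, 5.68 and 8.23 CPM in controls and at 10.1, 10.2 and 10.4 CPM in FAP libraries. All FAP values were above all controls, the largest control being near them and control replicate 2 far below. The log2 fold change was 0.40 (SE 0.22, 95% interval -0.05 to 0.85, adjusted p = 0.556), and 0.21 without control replicate 2. CSGALNACT1 was at 5.63 ± 1.44 and 6.51 ± 0.762 CPM (log2 fold change 0.19, SE 0.25), with overlapping groups.

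Among the genes that modify chondroitin and dermatan sulfate, 9 of 10 were tested and 0 were called, and the epimerase DSE had the smallest p of all members. DSE turns glucuronic into iduronic acid and so makes dermatan sulfate. It (Entrez 29940; chromosome 6, 116254171 to 116444861) was at 37.4, 28.8 and 32.4 CPM in controls and at 42.9, 39.9 and 41.7 CPM in FAP libraries. Each FAP library was above each control, and the control spread (SD 4.32) was wider than that of the FAP libraries (SD 1.49). The log2 fold change was 0.34 (SE 0.12, 95% interval 0.09 to 0.60, unadjusted p = 0.0114, adjusted p = 0.358). With each library left out in turn the estimate ran from 0.26 to 0.43. Exons of DSE overlap TSPYL1 on the opposite strand (32.6 and 34.7 CPM, log2 fold change 0.08). The strand setting of the counting is not given in the sources used here, so reads of the overlap cannot be assigned.

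DSEL, the second epimerase gene, was at 19.5, 13.98 and 14.1 CPM in controls and at 14.2, 15.7 and 9.19 CPM with the FAP vector (log2 fold change -0.27, SE 0.20, adjusted p = 0.693), with overlapping groups. Without FAP replicate 3, the library that stood apart, the estimate was -0.05. The DSE share of the summed per-length level was 63.2%, 64.9% and 67.4% in control replicates 1 to 3 and 73.1%, 69.5% and 80.3% in FAP replicates 1 to 3. Among 12 such isoenzyme shares this was the 1 whose groups did not overlap. The mean difference was 9.09 percentage points. A two-sided exact permutation test gave p = 0.1, the smallest that 3 against 3 libraries allow, and 0.96 after adjustment over the 12 shares. As it could not go under 0.1 and the sets were chosen after the data were seen, this test decides nothing about the share. FAP replicate 3 had the largest share, and the groups did not overlap without it either.

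The sulfotransferases had estimates on both sides of 0. Per length, CHST12, a chondroitin 4-O-sulfotransferase, led the modifying enzymes in controls (11.2 ± 1.34 CPM per kilobase), followed by CHST14, the dermatan 4-O-sulfotransferase (7.11 ± 0.593), CHST11, the other main chondroitin 4-O-sulfotransferase (4.35 ± 0.514), and DSE (3.10 ± 0.407). Without length division the order turned, CHST12 (23.9 CPM) lying below DSE (32.9 CPM), CHST14 (25.4 CPM) and CHST11 (24.8 CPM). CHST12 was at 26.7, 23.9 and 21.0 CPM in controls and 17.9, 21.7 and 27.9 CPM in FAP libraries. The FAP values spanned the whole control range (log2 fold change -0.05, SE 0.16). CHST11 was at 24.8 ± 2.93 and 24.1 ± 0.136 CPM, and CHST14 at 25.4 ± 2.12 and 27.6 ± 1.15 CPM. CHST12 had 72.0 ± 3.04% of the per-length level of the 4-O-sulfotransferases CHST11, CHST12 and CHST13 in controls and 70.6 ± 4.87% in FAP libraries. From undivided CPM these shares were 49.0 ± 3.82% and 47.8 ± 5.62%, so that neither CHST11 nor CHST12 led. CHST13 had 0 counts in each control and 2, 0 and 1 in the FAP libraries, a 0 allowing up to 0.548, 0.328 and 0.237 CPM in control replicates 1 to 3 (counting error only).

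The 6-O-sulfotransferases were low and variable. CHST3, whose loss causes a spondyloepiphyseal dysplasia, was at 10.6, 9.18 and 17.4 CPM in controls and 16.9, 11.998 and 14.4 CPM in FAP libraries, the highest value being control replicate 3. Its log2 fold change was 0.17 (SE 0.21) and 0.54 without that library, where it was not called (adjusted p = 0.442). CHST7 was at 1.28, 2.62 and 4.27 CPM in controls and 4.79, 3.67 and 2.30 CPM in FAP libraries, with wide overlap. CHST15 (Entrez 51363; chromosome 10, 124007668 to 124093598), which adds a second sulfate to 4-sulfated units, was at 3.29, 4.81 and 4.51 CPM in controls and 6.70, 5.29 and 5.04 CPM in FAP libraries. All FAP values were above all controls, by little between the nearest 2 libraries (log2 fold change 0.38, SE 0.27, adjusted p = 0.667). UST, the uronyl 2-O-sulfotransferase, was at 5.30 ± 0.489 and 4.503 ± 0.731 CPM.

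**Figure D3:**
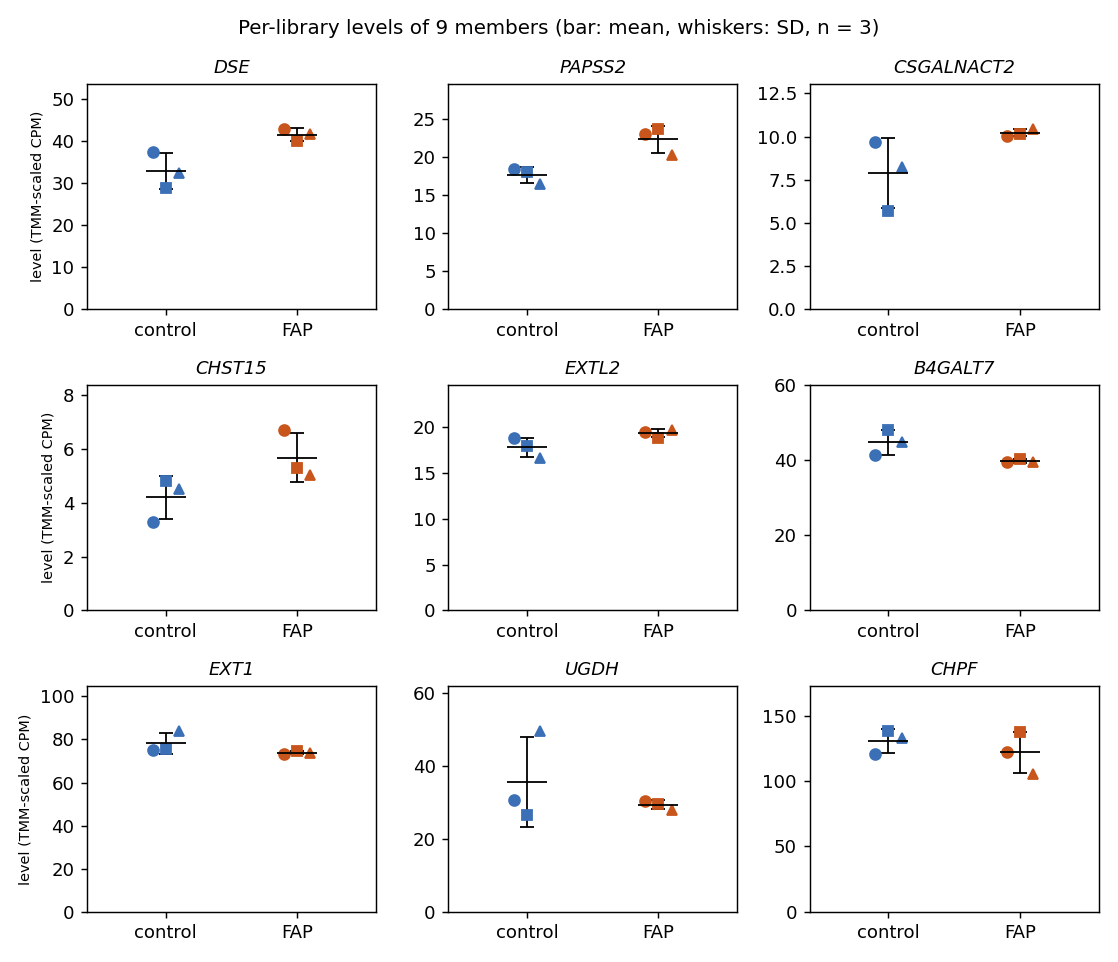
Levels (TMM-scaled CPM, axes from 0) of 9 members in each library, with the mean and SD of each group (n = 3); circles, squares and triangles are replicates 1, 2 and 3. For DSE, PAPSS2, CSGALNACT2, CHST15 and EXTL2 each FAP library lies above each control, for B4GALT7 and EXT1 below, and for UGDH control replicate 3 stands at 49.6 CPM above the other 5.

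In all, FAP libraries lay on 1 side of the controls for 7 of the 35 tested members, 5 above and 2 below, while 16.0% of all genes tested did so (7.96% above, 7.99% below). None of the 7 was called.

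The genes of heparan chain polymerisation had 0 of 4 called and estimates from -0.09 to 0.13. EXT1 and EXT2 together form the polymerase, and loss of either causes multiple exostoses. Per length, EXT2 (14.4 ± 0.536 CPM per kilobase in controls) stood above EXT1 (9.47 ± 0.588), followed by EXTL3, which adds the first N-acetylglucosamine (5.98 ± 0.82), and EXTL2 (4.47 ± 0.266), without overlap of neighbours. Without length division EXT1 (78.3 CPM) stood above EXT2 (49.6 CPM), so their order was not settled. EXT2 (Entrez 2132; chromosome 11, 44095678 to 44251962) was at 47.7, 49.7 and 51.4 CPM in controls and 56.7, 48.8 and 47.7 CPM in FAP libraries, with overlap (log2 fold change 0.03, 95% interval -0.20 to 0.26).

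EXT1 was at 75.3, 75.7 and 83.9 CPM in controls and at 73.2, 74.5 and 73.6 CPM in FAP libraries, all FAP values being below the controls by a narrow gap (log2 fold change -0.09, SE 0.10, adjusted p = 0.813). EXTL2 was at 18.8, 17.9 and 16.7 CPM in controls and 19.5, 18.8 and 19.7 CPM in FAP libraries. Each FAP value was above each control, the nearest of them by less than the rounding shows (log2 fold change 0.13, SE 0.14, adjusted p = 0.814). EXTL3 was at 38.7 ± 5.32 and 41.1 ± 3.83 CPM.

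Of the 6 heparan modifying enzymes 5 were tested and 0 were called, with estimates from -0.08 to 0.23. NDST1, which replaces acetyl with sulfate and so opens the chain to further modification, led per length (7.001 ± 0.587 CPM per kilobase in controls). NDST1 (Entrez 3340; chromosome 5, 150497779 to 150558211) was at 50.8, 59.0 and 58.9 CPM in controls and 59.0, 49.6 and 51.8 CPM in FAP libraries, with full overlap (log2 fold change -0.08, SE 0.11, adjusted p = 0.844). NDST2 was at 9.63 ± 0.589 and 10.5 ± 2.35 CPM, and NDST1 held 73.1 ± 2.64% and 70.6 ± 4.54% of the per-length level of the pair. From undivided CPM these NDST1 shares were 85.3 ± 1.69% and 83.7 ± 2.95%, so their size rests on the length division. HS6ST1, the 6-O-sulfotransferase, was at 19.7 ± 1.71 and 19.3 ± 1.10 CPM. HS2ST1, the 2-O-sulfotransferase, was at 29.3 ± 2.31 and 32.0 ± 2.69 CPM, and its per-length range overlapped that of HS6ST1. GLCE, the epimerase of heparan sulfate, was at 11.04 ± 1.42 and 13.1 ± 0.989 CPM (log2 fold change 0.23, SE 0.18, adjusted p = 0.711). HS6ST2 had 1 count in control replicate 2 and 1 in FAP replicate 2 and none in the other libraries.

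Of the hyaluronan synthases listed HAS2 was tested and was not called. HAS2 was at 11.3, 9.94 and 7.52 CPM in controls and at 4.95, 8.26 and 8.75 CPM in FAP libraries. The groups overlapped, and FAP replicate 1 was the lowest. The log2 fold change, -0.32 (SE 0.24, 95% interval -0.82 to 0.17, adjusted p = 0.680), was the most negative of the 35 in this fit. It was -0.14 without FAP replicate 1, and under limma-voom UGDH (-0.28) was more negative than HAS2 (-0.24). HAS3 had 10, 2 and 6 counts in controls and 4, 12 and 9 in FAP libraries and was not tested. Its exons overlap CHTF8 on the opposite strand (13.7 and 17.2 CPM). HAS2 made up 92.7 ± 5.96% and 90.8 ± 2.16% of the per-length level of HAS2 and HAS3.

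Among the 5 supply genes 0 were called, and PAPSS2 had the second smallest p of all members. PAPSS1 and PAPSS2 make PAPS, the sulfate donor of every sulfotransferase named above, and PAPSS2 is the form linked to cartilage growth. PAPSS2 (Entrez 9060; chromosome 10, 87659878 to 87747705) was at 18.4, 18.0 and 16.5 CPM in controls and at 23.0, 23.7 and 20.3 CPM in FAP libraries. Each FAP library was above each control, and FAP replicate 3 lay closest to the controls. PAPSS2 thus had an estimated log2 fold change of 0.34 (SE 0.14, 95% interval 0.05 to 0.64, unadjusted p = 0.0259, adjusted p = 0.429), and 0.29 to 0.41 with each library left out in turn. PAPSS1 was at 21.2, 15.2 and 19.1 CPM in controls and 23.3, 18.0 and 20.9 CPM in FAP libraries, with overlap (log2 fold change 0.16, SE 0.16). The PAPSS1 share of the per-length level was 60.0 ± 4.39% in controls and 57.2 ± 4.22% in FAP libraries, and from undivided CPM 51.0 ± 4.53% and 48.1 ± 4.27%.

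UGDH oxidises UDP-glucose to the UDP-glucuronic acid used for chondroitin, dermatan and heparan sulfate and for hyaluronan. It had the highest per-length level of the supply genes in controls (11.1 ± 3.83 CPM per kilobase). Without length division SLC26A2 (46.2 CPM) stood above UGDH (35.6 CPM). UGDH (Entrez 7358; chromosome 4, 39498755 to 39527439) was at 30.7, 26.5 and 49.6 CPM in controls and at 30.5, 29.7 and 28.0 CPM in FAP libraries. Control replicate 3 stood above the other 5 libraries, which lay between 26.5 and 30.7 CPM. UGDH had a log2 fold change of -0.30 (SE 0.17, adjusted p = 0.579), and of 0.04 without control replicate 3, so that 1 library set its sign. SLC26A2, the sulfate transporter of the diastrophic dysplasia family, was at 46.2 ± 4.09 and 43.4 ± 5.20 CPM (log2 fold change -0.08, 95% interval -0.33 to 0.18). SLC35D1, which carries UDP-sugars into the endoplasmic reticulum, was at 9.15 ± 3.61 and 8.53 ± 2.01 CPM.

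**Figure D4:**
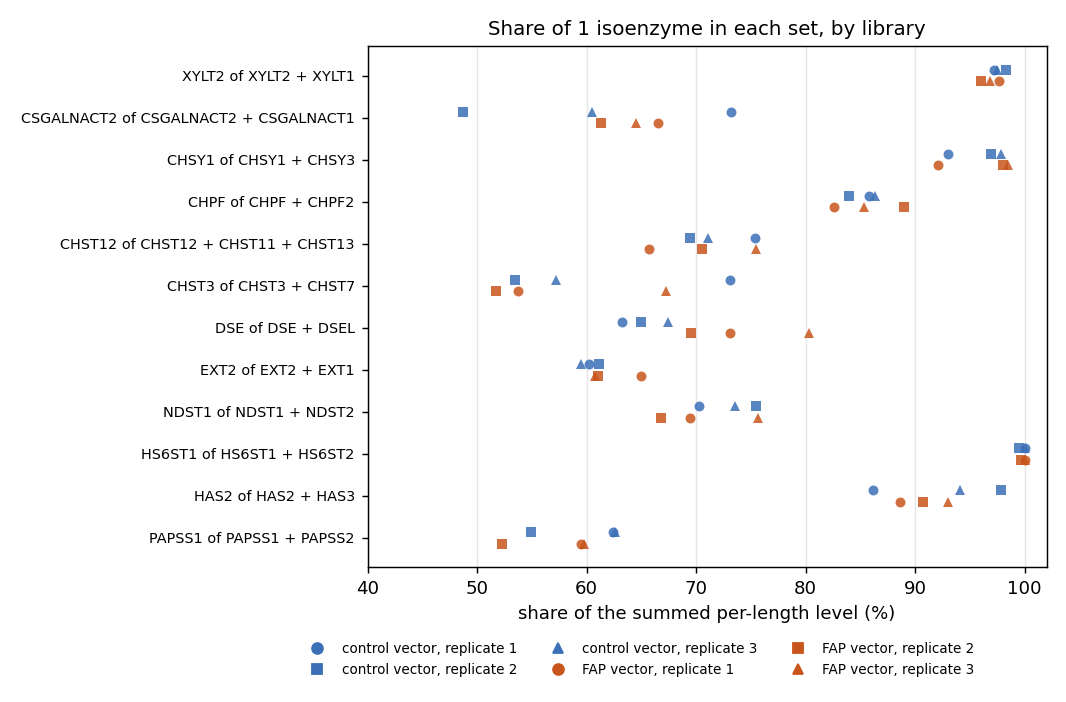
Share (%) of the first-named gene in the summed per-length level of each isoenzyme set, by library, on an axis that starts at 40%. XYLT2, CHSY1 and HS6ST1 lie above 90% in every library, and the DSE share is the 1 set whose FAP and control points do not overlap.

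The other genes of proteoglycan metabolism held no call either, beside 0.224% called over all genes tested. Over all genes tested, 50.7% had positive values and 9.91% an unadjusted p under 0.05. These further lists were chosen with earlier results of these data known and were not tested as sets. Of 45 core protein genes 26 were tested, 16 (61.5%) with positive values (median log2 fold change 0.08), and 6 (23.1%) had an unadjusted p under 0.05. The smallest p belonged to biglycan (BGN), which carries chondroitin or dermatan sulfate (53.7 ± 7.30 and 77.5 ± 19.5 CPM, log2 fold change 0.53, SE 0.14, adjusted p = 0.189). SDC2, a cell surface heparan sulfate proteoglycan, followed (46.6 ± 4.35 and 59.9 ± 7.52 CPM, log2 fold change 0.35, SE 0.12, adjusted p = 0.321). Versican (VCAN) was at 25.3 ± 4.73 and 33.1 ± 2.91 CPM, SDC4 at 215 ± 1.24 and 219 ± 11.8 CPM, and GPC1 at 121 ± 7.28 and 131 ± 13.0 CPM. ACAN, with 6, 15 and 11 counts in controls and 2, 12 and 6 in FAP libraries, and perlecan (HSPG2), with at most 7 counts, were not tested. CD44, the hyaluronan receptor, which was chosen after its values were seen, was at 412 ± 13.6 and 343 ± 15.8 CPM (log2 fold change -0.26, SE 0.10, adjusted p = 0.358).

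Of 28 further genes of sugar nucleotide and PAPS supply found in the table, 27 were tested, 11 (40.7%) with positive values (median -0.05). Against 9.91% of all genes tested, 2 of these 27 (7.41%) had an unadjusted p under 0.05. These were SLC35A2, the Golgi carrier of UDP-galactose (49.2 ± 5.43 and 37.1 ± 0.657 CPM, log2 fold change -0.40, adjusted p = 0.226), and NAGK, a kinase that salvages N-acetylglucosamine (55.1 ± 5.61 and 43.9 ± 5.81 CPM, -0.31, adjusted p = 0.403). Of 26 other chain and sulfation enzymes 12 were tested (5 positive, median -0.08), and those with the smallest p were B4GALT4, a galactosyltransferase (log2 fold change -0.33, adjusted p = 0.361), and CHST6, a keratan sulfotransferase (0.85, adjusted p = 0.616, from 0.870 to 1.59 CPM). Of 26 genes of chain editing and breakdown found in the table, 22 were tested (7 or 31.8% positive, median -0.12). An unadjusted p under 0.05 was reached by 4 of the 22 (18.2%, against 9.91% of all genes tested). HEXA, a lysosomal hexosaminidase, was at 102.4 ± 3.02 and 86.0 ± 0.677 CPM (log2 fold change -0.25, adjusted p = 0.383). SULF2, which removes 6-O-sulfate from heparan sulfate outside the cell, was at 37.2 ± 5.39 and 46.6 ± 2.87 CPM (0.32, adjusted p = 0.388).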

How the data were processed

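RNA of 6 TC28a2 samples was sequenced as DRUG-seq libraries. The authors deposited whole-number read counts per Entrez gene, without normalization. HISAT2, featureCounts, Subread and GRCh38 are named per the submitters' processing notes. Their versions, the strand setting and any counting of molecular identifiers were not given in the sources used here, so amplification copies may count as separate reads.

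Of 28395 IDs, 27745 matched a symbol in RefSeq (GRCh38.p14). The tests used edgeR 4.0.16 (R 4.3.3) with TMM factors, genes kept by filterByExpr within groups (count of at least 10, total of at least 15), the two-sided quasi-likelihood F test of FAP minus control without covariates, and Benjamini-Hochberg adjustment over 13373 genes (called under 0.05). The SE is the size of the log2 fold change divided by the square root of F, and 95% intervals use its t distribution. Transcript length was that of the longest GENCODE v29 transcript linked to RefSeq, or the longest where none was. Limits for counts of 0 use 3 counts. The test was tried on simulated data. Alternatives were DESeq2 1.42.0, limma-voom (limma 3.58.1), other size factors, filters and depths, a block on replicate number, and leaving out each library. Figures used matplotlib 3.10.9.

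The members and lists were chosen with earlier results of these data known. Values in every library are given for members with an unadjusted p under 0.05, with groups that do not overlap or leading their role per length, and counts for those not tested. Other members shown per library (XYLT2, CHSY1, DSEL, CHST3, CHST7, PAPSS1), the isoenzyme sets, the levels and shares without length division and the promoter motif were chosen after the data were seen. For other lists the 2 genes with the smallest p are given, and BGN, VCAN, ACAN, HSPG2, SDC4 and GPC1.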

Additional observations from a re-analysis of the deposited data

How the results depend on the processing

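Under the 15 alternatives, 0 members were called in every fit, and the smallest adjusted p of any member ran from 0.215 (without FAP replicate 3) to 0.679 (without control replicate 2). Of 518 member fold changes recomputed, 503 kept their sign and side of the threshold and 15 changed sign. After thinning to the smallest library CHST11 was at 0.0091 and HS6ST1 at 0.0074. With 1 library left out, sign changes occurred within the ranges -0.0094 to 0.77 for CHST7, -0.24 to 0.073 for CHST12, -0.33 to 0.19 for SLC35D1, -0.015 to 0.54 for CHST3, -0.11 to 0.065 for CHST11, -0.11 to 0.012 for HS6ST1, -0.48 to 0.044 for UGDH, -0.026 to 0.19 for B3GALT6, -0.041 to 0.075 for EXT2, -0.16 to 0.0088 for SLC26A2 and -0.017 to 0.42 for XYLT1. The members' median lay between -0.021 and 0.028 with 1 library left out. Over all genes, calls numbered 82 with DESeq2, 152 with no low-count filter (21180 genes tested) and 3 to 248 with 1 library left out (3 without control replicate 3, 4 without control replicate 1, 6 without FAP replicate 2, 7 without control replicate 2, 38 without FAP replicate 1, 248 without FAP replicate 3); the cause was not tested. With no low-count filter the 4 untested members were not called either. Same-numbered libraries did not deviate together over all genes tested (correlations of -0.0073, 0.029 and -0.0015). These correlations cannot show whether the samples were handled in pairs, and the labels state no pairing. With the replicate block 44 genes and 0 members were called, and the members' median was -0.02. Counts of 13 or fewer per library limit what can be said of CHSY3, CHST13, HS6ST2 and HAS3. Without length division, an alternative chosen after seeing the data, the control share of CHST12 was 49.0% in place of 72.0%. That of EXT2 was 38.8% in place of 60.3%, and that of NDST1 was 85.3% in place of 73.1%. DSE was still the 1 set whose groups did not overlap.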
